A study of Homo sapiens with 10 samples.

Results

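HuR siRNA against GFP siRNA is the comparison of 2 of the 10 libraries of a sequencing series on polyadenylated RNA from HEK293, an established human embryonic kidney cell line. The 2 libraries were chosen by their label for siRNA transfection. For the HuR siRNA library, cells had received a small interfering RNA (siRNA) that targets HuR, and for the GFP siRNA library one that targets green fluorescent protein (GFP), which serves as the control. For both libraries the labels name no 4-thiouridine (4SU) and no ultraviolet crosslinking. The other 8 libraries form 4 groups of 2 for the conditions used in crosslinking and immunoprecipitation: 4SU with crosslinking at 365 nm, 4SU alone, crosslinking at 254 nm without 4SU, and neither (untreated, libraries A and B). The labels used here name no siRNA sequence, dose or time of harvest. The comparison asks which mRNAs differed in level when HuR was targeted. With 1 library per siRNA there is no replicate check and no p-value, so every interval below covers counting error only.

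HuR is the protein of the gene ELAVL1, the ubiquitous member of the ELAV family of RNA-binding proteins. The other members, ELAVL2, ELAVL3 and ELAVL4, are best known from neurons. HuR binds U-rich and AU-rich stretches, mostly in 3′ untranslated regions (3′ UTRs) and introns, shuttles between nucleus and cytoplasm, and is known for stabilising or raising the translation of many short-lived mRNAs. Other proteins that bind the same kind of element, such as those of the ZFP36 family, are known for promoting decay.

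The HuR siRNA library held 9016803 tags over 22616 listed transcripts, against 8688262 tags over 22505 transcripts in the GFP siRNA library. Untreated libraries A and B were shallower, with 3099769 and 2396069 tags. Levels are tags per 1000000 after TMM scaling (CPM), and ratios are log2 of HuR siRNA over GFP siRNA with a prior count of 2. Of 17798 genes with at least 10 tags over the pair, the 8900 with mean CPM at or above the median were ranked. These had at least 352 tags over the pair, and the counting error alone gave a median 95% half-width of 0.18 on the log2 scale.

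ELAVL1 (NM_001419, chromosome 19) had 638 tags in the HuR siRNA library and 1905 tags in the GFP siRNA library. This is 73.1 CPM with HuR siRNA, against 212 CPM with GFP siRNA and 228 and 316 CPM in the untreated libraries. The HuR siRNA library was below all 3 others, and its log2 ratio to the GFP siRNA library was -1.54 (95% exact counting interval -1.67 to -1.41), a 2.90-fold lower level. In RNA from a whole culture, a lower level in every cell and a loss in some of the cells cannot be told apart. Of the 8900 ranked genes, 25 had a ratio as low as that of ELAVL1 or lower, ELAVL1 included. ELAVL2 had 203 tags with HuR siRNA and 341 tags with GFP siRNA. Its levels were 23.3 CPM with HuR siRNA, 38.0 CPM with GFP siRNA and 13.1 and 23.0 CPM in untreated libraries, so that the HuR siRNA library lay close to untreated library B and the GFP siRNA library above both. Its log2 ratio was -0.70 (-0.97 to -0.45). ELAVL3 had 5 tags with HuR siRNA and 2 with GFP siRNA, and ELAVL4 had 0 and 2, which are too few for a ratio.

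The kind of sequence that HuR is known to bind is shown for the targeted gene and for genes at both ends of the ranking. Each line gives the 30-base stretch of the annotated 3′ UTR with the most U, read 5′ to 3′ on the transcript strand of GENCODE v29 on GRCh38, with T for U and runs of at least 4 T in capitals. ELAVL1 was the targeted gene, the next 5 had the lowest ratios of genes with a name and the last 4 the highest.
ELAVL1: TTTTcTTTTgcTTTTTTgtgTTTTTTgttt
MAN2A1: tgattctgtgggTTTTTTcTTTTTTcTTTT
FAM111B: gtatatgtccaaaggaatataaattgttct
SLC4A7: TTTTTaTTTTgtgtattagTTTTTgcTTTT
ENPP4: ttattactttgTTTTccttgtgTTTTgttt
STT3B: aTTTTTTTTTTattggtacatattatcctt
HMOX1: tgttgtgtcttgtgTTTTTgtcttaTTTTT
FAM174C: ttgcctgactgtgacttgtgcctctctcct
CD68: aaagacaatgttaTTTTccttccctttctt
TP53I13: aactccgtttctaattaaattaTTTTTagt
The stretches lie in the 3′ UTR at chr19:7962324-7962353 (minus strand) for ELAVL1, chr5:109867114-109867143 (plus) for MAN2A1, chr11:59126889-59126918 (plus) for FAM111B, chr3:27375476-27375505 (minus) for SLC4A7, chr6:46143769-46143798 (plus) for ENPP4 and chr3:31636301-31636330 (plus) for STT3B. They lie at chr22:35393997-35394026 (plus) for HMOX1, chr19:1279081-1279110 (plus) for FAM174C, chr17:7581595-7581624 (plus) for CD68 and chr17:29573125-29573154 (plus) for TP53I13. The stretch of ELAVL1 held 24 U of 30 bases. Those of MAN2A1 and HMOX1, which had the lowest and the highest ratio of genes with a name, both held 21, and that of FAM111B held 11. The whole 3′ UTR of SLC4A7 held 24 copies of the pentamer AUUUA and that of ENPP4 21, while MAN2A1, FAM111B, HMOX1, FAM174C and TP53I13 held none. Over all ranked genes with a matched 3′ UTR, the median was 20 U per stretch in 358 genes more than 2-fold lower with HuR siRNA, 14 in 181 genes more than 2-fold higher, and 19 in all 7792. These are matches of letters, and binding was not measured in these libraries. The U counts were not corrected for 3′ UTR length or base composition. By 3′ UTR length, the median ratio was 0.32 in the shortest sixth of genes and -0.35 in the longest. The ratio of untreated library A over B had medians of 0.15 and -0.44 in the same sixths.

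Across the transcriptome, 1454 of 8900 ranked genes (16.3%) were more than 1.5-fold higher with HuR siRNA and 1670 (18.8%) more than 1.5-fold lower. More than 2-fold, 231 genes (2.6%) were higher and 400 (4.49%) lower. The split depended on the scaling: with upper-quartile factors 1827 were higher and 1338 lower past 1.5-fold, and with library totals alone 1084 were higher and 2052 lower. Past 2-fold the counts were 339 higher and 287 lower with upper-quartile factors, and 116 and 584 with library totals. The log2 ratios had a median of -0.0048, quartiles of -0.45 and 0.43 and a standard deviation (SD) of 0.58. The counting interval excluded no difference for 7074 genes (79.5%), which shows depth and not repeatability.

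The ratio moved strongly with the base composition and length of the transcript. In the sixth of genes with the lowest GC content (32.0% to 40.4%), the median log2 ratio was -0.60 and 52.1% of genes were more than 1.5-fold lower with HuR siRNA. In the sixth with the highest GC content (59.0% to 74.5%), the median was 0.63 and 54.9% were more than 1.5-fold higher. By length, the median was lower in each longer sixth, being 0.40 in transcripts of 241 to 1560 nt and -0.40 in transcripts of 5667 to 27745 nt. Smooth trends on length and GC together took 63.1% of the variance of the ratio over 7874 ranked genes with a GC value. The ratio of untreated library A over untreated library B, which had the same treatment, carried trends of like form on the same genes, with 65.5% of its variance and medians of -0.59 and 0.73 in the lowest and highest GC sixth. The part that these trends have in any 1 gene's ratio was not tested. Ratios are therefore also given with both trends removed, a treatment of the data chosen after they were seen. A single value in parentheses after a ratio is the ratio with both trends removed. GC content and 3′ UTRs came from matched GENCODE v29 transcripts. Of the 7874 genes, 5769 had a match within 10% of the deposited transcript length. For HNRNPA0, AGO2, LSM3 and MDM2, among others, the matched 3′ UTR alone was longer than the deposited transcript. Motif counts and ratios with trends removed are uncertain for such genes.

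**Figure D1:**
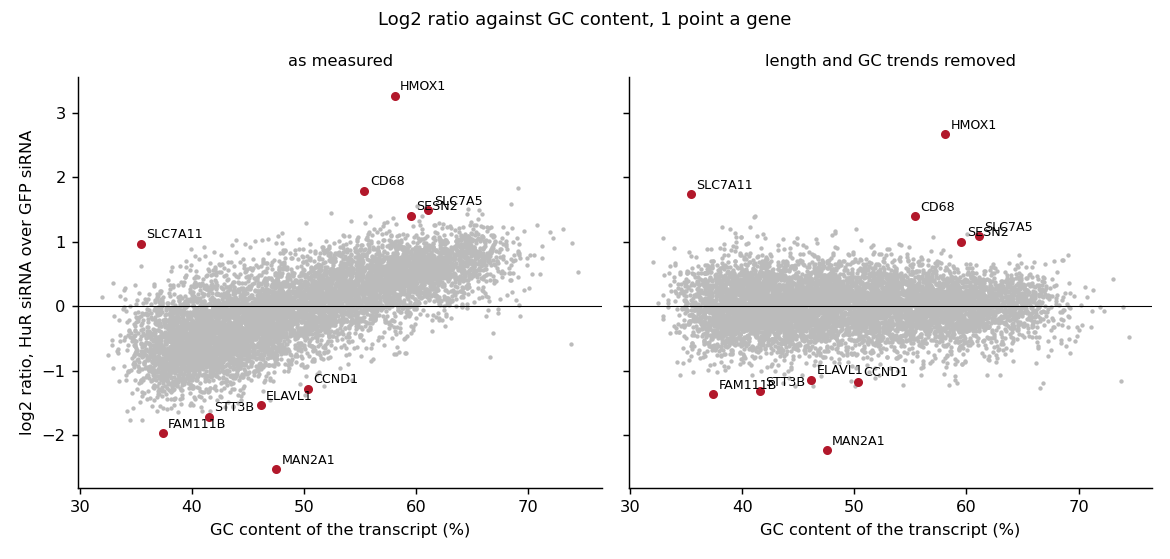
Log2 ratio of HuR siRNA over GFP siRNA (vertical axis) against the GC content of the transcript in percent (horizontal axis) for 7874 ranked genes, 1 point a gene, as measured (left) and with length and GC trends removed (right). Of the genes with a name, HMOX1 and MAN2A1 lie farthest from zero in both panels, and ELAVL1 lies at -1.54 on the left and -1.14 on the right.

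**Figure D2:**
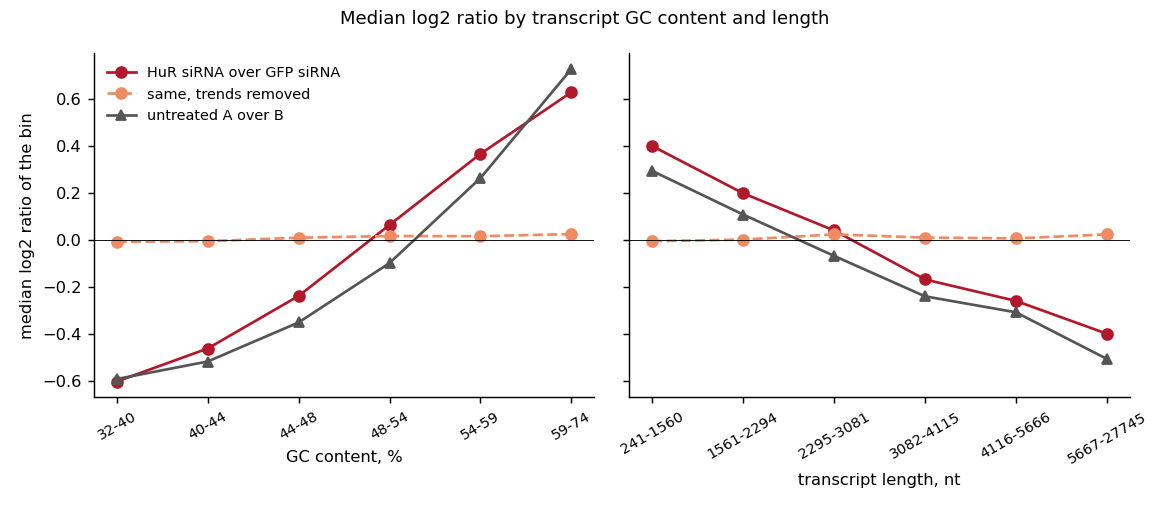
Median log2 ratio (vertical axis) in sixths of ranked genes by GC content in percent (left) and transcript length in nt (right), for HuR siRNA over GFP siRNA as measured and with trends removed, and for untreated library A over B. The measured line of the siRNA pair runs between -0.60 and 0.63 by GC content and the untreated line between -0.59 and 0.73.

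With trends removed, the SD of the ratios was 0.35, against 0.58 for the same genes as measured. Of 7874 genes, 345 (4.38%) were then more than 1.5-fold higher with HuR siRNA and 377 (4.79%) lower, and past 2-fold 27 (0.343%) were higher and 37 (0.47%) lower. ELAVL1 had -1.14 on this scale, at or below which lay 18 genes including itself. The spread of the siRNA pair was set beside that of libraries of the same treatment. Over 1417 genes with at least 100 tags in both libraries of each of 5 pairs, the SD with trends removed was 0.31 for the siRNA pair, 0.31 for untreated, 0.32 for 4SU alone, 0.32 for 254 nm and 0.39 for 4SU with 365 nm. Past 1.5-fold lay 6.14% of genes in the siRNA pair and 5.58% to 11.5% in the 4 pairs of the same treatment. As measured, over 1583 genes, the siRNA pair had 36.6% past 1.5-fold and the other pairs 20.7% to 29.2%, whereas its SD of 0.44 and its 5.87% past 2-fold lay within those of the other pairs, which were 0.39 to 0.53 and 2.27% to 7.96%. The other libraries are shallower, with 2238569 to 3099769 tags.

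MAN2A1 had the lowest ratio of the ranked genes with a name, below that of the targeted gene. It encodes the Golgi alpha-mannosidase II that trims N-glycans, and had 7.68 CPM with HuR siRNA, against 45.4 CPM with GFP siRNA and 31.2 and 47.7 CPM in untreated cells. Its log2 ratio was -2.53 (-2.96 to -2.19), a 5.77-fold lower level, and it kept -2.23 with trends removed. The HuR siRNA library alone stood apart for this gene, with the other 3 libraries between 31.2 and 47.7 CPM. FAM111B, a gene with a trypsin-like protease domain, had 12.8 CPM with HuR siRNA, against 50.8 CPM with GFP siRNA and 36.5 and 45.5 CPM in untreated cells. Its ratio was -1.97, or -1.36 with trends removed. STT3B, a catalytic subunit of the oligosaccharyltransferase that attaches N-glycans, had 34.02 CPM with HuR siRNA, against 112 CPM with GFP siRNA and 94.0 and 148 CPM in untreated cells. Its ratio was -1.71 (-1.91 to -1.53), or -1.32 with trends removed. In all 3 genes the HuR siRNA library was the lowest of the 4.

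SLC4A7, a sodium bicarbonate cotransporter, had 15.9 CPM with HuR siRNA, 54.9 CPM with GFP siRNA and 25.6 and 51.6 CPM in untreated cells. Its ratio was -1.77, or -1.02 with trends removed. ENPP4, an ectonucleotide hydrolase, had 17.3 CPM with HuR siRNA, 59.6 CPM with GFP siRNA and 31.9 and 38.6 CPM in untreated cells, a ratio of -1.77. Both genes were lowest with HuR siRNA. STK26, a kinase of the germinal centre kinase group, had 53.2 CPM with HuR siRNA, 162 CPM with GFP siRNA and 94.3 and 178 CPM in untreated cells, a ratio of -1.60 (-1.02 with trends removed). For CDK17, a cyclin-dependent kinase, and KIF20B, a kinesin of cytokinesis, the GFP siRNA library was the one outside the untreated range. CDK17 had 15.1 CPM with HuR siRNA, 47.2 CPM with GFP siRNA and 14.5 and 23.0 CPM in untreated cells. KIF20B had 35.1 CPM with HuR siRNA, 109 CPM with GFP siRNA and 24.0 and 78.0 CPM in untreated cells. Both had a ratio of -1.63, and KIF20B had -0.87 with trends removed.

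The remaining genes among the 15 named genes with the lowest ratios had ratios of -1.65 to -1.57. They were GCC2, a golgin, SAMTOR, an S-adenosylmethionine sensor upstream of mTORC1, GPC6, a glypican, COG6, a subunit of a Golgi tethering complex, RIF1, a regulator of replication timing, POLK, a translesion DNA polymerase, and PDE3B, a phosphodiesterase. GCC2 and POLK hold tags that were divided among several transcripts (split tags), which makes them uncertain, as for every gene said below to hold split tags. Over all 400 genes more than 2-fold lower with HuR siRNA, the HuR siRNA library lay below both untreated libraries in 282 (70.5%), and the GFP siRNA library lay above both in 258 (64.5%). Of all 8900 ranked genes, HuR siRNA lay below both in 30.9% and GFP siRNA above both in 37.7%.

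HMOX1 had the highest ratio of the ranked genes with a name. It encodes heme oxygenase 1, an inducible enzyme of heme breakdown and a marker of oxidative stress, and is on the list of known HuR targets. It had 1427 tags with HuR siRNA and 151 with GFP siRNA, or 163 CPM against 16.8 CPM, with 47.6 and 28.6 CPM in untreated cells. The HuR siRNA library was the highest of the 4 and the GFP siRNA library the lowest. The log2 ratio was 3.26 (3.04 to 3.53), a 9.60-fold higher level, and 2.67 with trends removed. CD68, a lysosomal glycoprotein best known from macrophages, had 33.0 CPM with HuR siRNA, against 9.36 CPM with GFP siRNA and 24.97 and 26.4 CPM in untreated cells. Its ratio was 1.79 (1.39 with trends removed), with split tags. Here the GFP siRNA library stood apart below the other 3.

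Some of the next highest ratios were much smaller with trends removed. FAM174C, whose transcript has a GC content of 69.1%, had 33.8 CPM with HuR siRNA, 9.36 CPM with GFP siRNA and 66.4 and 21.7 CPM in untreated cells, a ratio of 1.83 that was 0.80 with trends removed. The HuR siRNA level lay between those of the untreated libraries. TP53I13, a p53-inducible gene with a GC content of 68.5%, had 61.3 CPM with HuR siRNA, 20.3 CPM with GFP siRNA and 62.7 and 19.9 CPM in untreated cells. Its ratio was 1.58, or 0.72 with trends removed, and the untreated libraries A and B differed as much as the siRNA pair. SLC6A9, a glycine transporter, had 39.6 CPM with HuR siRNA, 13.4 CPM with GFP siRNA and 19.4 and 8.67 CPM in untreated cells, a ratio of 1.55 (1.11 with trends removed). SLC7A5, the large neutral amino acid transporter LAT1, had 178 CPM with HuR siRNA, 63.5 CPM with GFP siRNA and 238 and 122 CPM in untreated cells, a ratio of 1.49 (1.08). SLC6A9 was highest with HuR siRNA, whereas for SLC7A5 the HuR siRNA library lay within the untreated range and GFP siRNA below it.

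The other genes among the 15 named genes with the highest ratios had ratios between 1.39 and 1.53. They were RHBDD2, a rhomboid-like membrane protein, DUS3L, a tRNA and mRNA dihydrouridine synthase, TSPO, a protein of the outer mitochondrial membrane, NDUFA2, a subunit of respiratory complex I, MIIP, AGPAT2, an acyltransferase of phospholipid synthesis, SESN2, a stress-induced leucine sensor, POLR2J, a subunit of RNA polymerase II, and SCAND1. AGPAT2 and SCAND1 hold split tags. Of the 231 genes more than 2-fold higher, HuR siRNA lay above both untreated libraries in 111 (48.1%) and GFP siRNA below both in 136 (58.9%). Of all ranked genes, HuR siRNA lay above both in 34.8% and GFP siRNA below both in 30.3%.

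**Figure D3:**
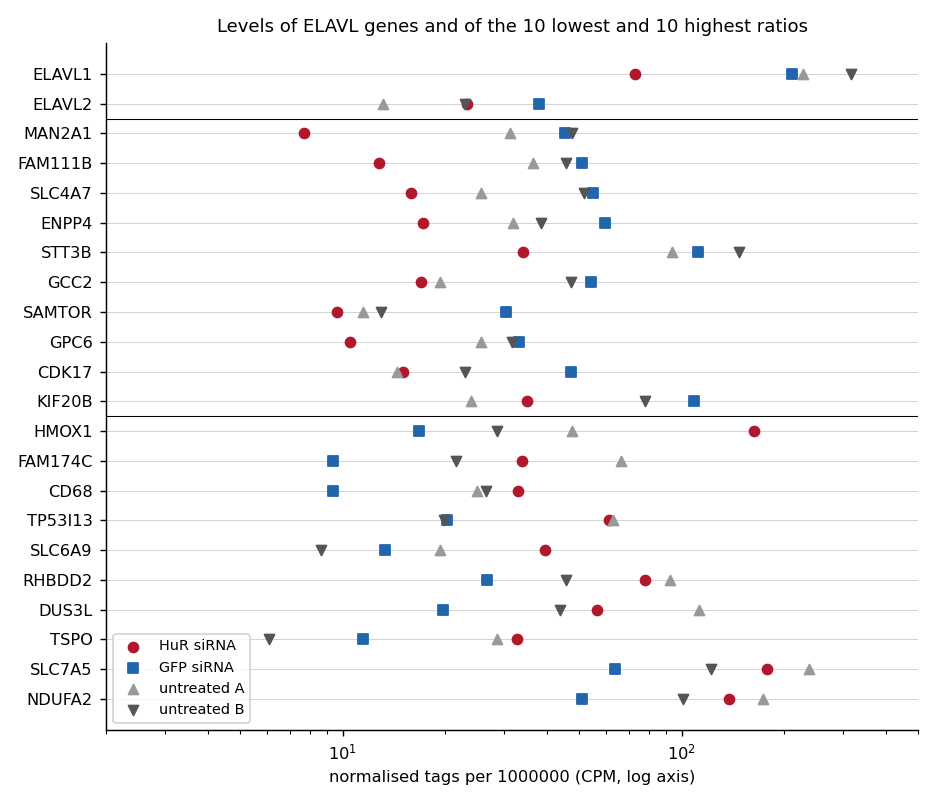
Level in CPM (horizontal log axis) of ELAVL1, ELAVL2, the 10 named genes with the lowest and the 10 with the highest log2 ratio, in the HuR siRNA, GFP siRNA and both untreated libraries, 1 symbol a library. ELAVL1, MAN2A1, FAM111B and STT3B are lowest with HuR siRNA, and HMOX1 is highest with HuR siRNA at 163 CPM against 16.8 CPM with GFP siRNA.

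With trends removed, other genes came to the ends of the ranking. They were chosen after their values were seen. SLC7A11, the cystine transporter that feeds glutathione synthesis, had 56.8 CPM with HuR siRNA, against 28.97 CPM with GFP siRNA and 22.7 and 30.3 CPM in untreated cells. Its measured ratio was 0.97 and its ratio with trends removed 1.73, second to HMOX1 among genes with a name, with split tags. HNRNPA0, an RNA-binding protein that also binds AU-rich elements, had 139 CPM with HuR siRNA, 73.7 CPM with GFP siRNA and 137 and 93.6 CPM in untreated cells, a ratio of 0.91 (1.38 with trends removed). RAP2B, a small GTPase, had 0.77 as measured and 1.40 with trends removed, and PDCD4, an inhibitor of translation initiation, had 0.62 and 1.20, both with split tags. PDCD4 reached 302 CPM with HuR siRNA, against 196 CPM with GFP siRNA and 98.6 and 158 CPM in untreated cells.

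At the low end, CCND1, which encodes cyclin D1 of the G1 phase, had 58.0 CPM with HuR siRNA, against 141 CPM with GFP siRNA and 117 and 129 CPM in untreated cells. The HuR siRNA library lay below the other 3, which were close together. The log2 ratio was -1.28 (-1.44 to -1.14) as measured and -1.17 with trends removed. SFRP1, a secreted Wnt antagonist, had 15.4 CPM with HuR siRNA, against 40.1 CPM with GFP siRNA and 42.4 and 51.6 CPM in untreated cells, a ratio of -1.37 (-1.24), with split tags. HS6ST2, a heparan sulfate sulfotransferase, had 40.6 CPM with HuR siRNA, 89.7 CPM with GFP siRNA and 73.6 and 116 CPM in untreated cells, a ratio of -1.14 (-1.23). In SFRP1 and HS6ST2 too, HuR siRNA gave the lowest level of the 4 libraries.

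The list of known HuR targets held 53 genes described as HuR targets in other work, of which 42 were ranked. Of these, 3 were more than 1.5-fold higher and 6 more than 1.5-fold lower with HuR siRNA, where 16.3% and 18.8% of all ranked genes were. The list's median was -0.04, against -0.0048 over all ranked genes, 0.04 with upper-quartile factors and 0.09 with trends removed. The 3 higher genes were HMOX1, BIRC5 and ATF3. BIRC5, the apoptosis inhibitor survivin, had 412 CPM with HuR siRNA, against 217 CPM with GFP siRNA and 283 and 285 CPM in untreated cells, a ratio of 0.93 (0.81 with trends removed). ATF3, a stress-induced transcription factor, had 80.2 CPM with HuR siRNA, 52.4 CPM with GFP siRNA and 139.6 and 106 CPM in untreated cells, a ratio of 0.61 (0.40).

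The 6 lower targets were CCND1, HIF1A, NF1, WNT5A, HDAC2 and SIRT1. HIF1A, the oxygen-regulated subunit of the hypoxia factor, had 93.8 CPM with HuR siRNA, against 215 CPM with GFP siRNA and 201 and 321 CPM in untreated cells, a ratio of -1.19 (-0.59 with trends removed). SIRT1, a deacetylase, had 44.6 CPM with HuR siRNA, 72.5 CPM with GFP siRNA and 87.1 and 170.3 CPM in untreated cells, a ratio of -0.70 (-0.13). Both had their lowest level with HuR siRNA. The ratios of NF1, a negative regulator of Ras, WNT5A, a secreted ligand, and HDAC2, a histone deacetylase, were -0.85, -0.74 and -0.70, and with trends removed -0.21, -0.17 and 0.01. NF1 and HDAC2 hold split tags. With trends removed, 5 targets lay past 1.5-fold in each direction, of 42. The lower ones were CCND1, CDKN1A, MYC, CCNE1 and HIF1A, and the higher ones HMOX1, BIRC5, CDC42, EIF4E and CCNA2, of which CDC42 and EIF4E hold split tags.

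Of these, CDKN1A, the cell cycle inhibitor p21, had 52.9 CPM with HuR siRNA, against 74.1 CPM with GFP siRNA and 121 and 95.8 CPM in untreated cells, a ratio of -0.48 as measured and -0.89 with trends removed, with split tags. MYC, a transcription factor of growth, had 196 CPM with HuR siRNA, 286 CPM with GFP siRNA and 360.0 and 531 CPM in untreated cells, a ratio of -0.54 (-0.79). CCNE1, cyclin E1, had 64.2 CPM with HuR siRNA, 92.5 CPM with GFP siRNA and 93.0 and 87.1 CPM in untreated cells, a ratio of -0.53 (-0.78). In all 3 genes the HuR siRNA library was the lowest of the 4. VEGFA, CTNNB1, PTMA, XIAP and MDM2, other much-studied targets, were within 1.5-fold on both scales. VEGFA, the angiogenic growth factor, had a ratio of 0.13 (-0.37 with trends removed), CTNNB1, which encodes beta-catenin, 0.13 (0.44), and PTMA, prothymosin alpha, -0.14 (-0.17). XIAP, an inhibitor of caspases, had -0.25 (0.46) and MDM2, a ubiquitin ligase, -0.11 (0.50). VEGFA, XIAP and MDM2 changed sign with trends removed. The annotated 3′ UTRs of XIAP and MDM2 hold 20 and 32 AUUUA pentamers. That of MDM2 has 10837 nt, which is longer than its deposited transcript of 7369 nt, so its motif count is uncertain. PTMA, XIAP and MDM2 hold split tags. FOS, whose mRNA carries the classical AU-rich element, had 53 tags with HuR siRNA and 52 with GFP siRNA and was not ranked. ACTB, TUBB3, ESR1 and PTGS2 had 21 tags or fewer in each library and give no ratio of use. Whether such low counts show the levels of these mRNAs in the cells was not tested.

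Genes for other RNA-binding proteins that recognise AU-rich and related elements numbered 28 ranked of 31. None was more than 1.5-fold higher and 6 were more than 1.5-fold lower with HuR siRNA, with a list median of -0.16. Of all ranked genes 16.3% were higher and 18.8% lower. The 6 lower genes of the list included CELF2, IGF2BP3, TIA1, RBMS1 and FUBP1. CELF2, a splicing and decay regulator, had 31.4 CPM with HuR siRNA, against 74.6 CPM with GFP siRNA and 52.6 and 102 CPM in untreated cells, a ratio of -1.24 (-0.56 with trends removed). IGF2BP3, an mRNA-stabilising protein, had 49.9 CPM with HuR siRNA, 105 CPM with GFP siRNA and 42.0 and 71.9 CPM in untreated cells, a ratio of -1.06 (-0.49). TIA1, a translational repressor of stress granules, had 43.2 CPM with HuR siRNA, 83.1 CPM with GFP siRNA and 66.7 and 107 CPM in untreated cells, a ratio of -0.94. With trends removed no gene of 27 lay past 1.5-fold, where 4.38% of all genes were higher and 4.79% lower. The decay factors ZFP36L1 and ZFP36L2 had -0.44 and 0.36, HNRNPD, also called AUF1, had 0.07 and KHSRP -0.14, and with trends removed these 4 had -0.39, 0.22, 0.42 and -0.55. ZFP36L1 and RBMS1 hold split tags.

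The mRNA decay machinery, with 50 ranked genes, had 8 higher and 11 lower and a median of -0.04 (5 higher, 1 lower and 0.01 with trends removed). The counts of this list and those below stand beside 16.3% higher and 18.8% lower of all ranked genes. With trends removed these shares were 4.38% and 4.79%. LSM3, of the LSM ring that binds deadenylated RNA, had 1.04 (0.76), EXOSC4, of the exosome, 0.86 (-0.11), DIS3, the exosome's nuclease, -0.92 (-0.22), and UPF2, of nonsense-mediated decay, -0.86 (-0.28). LSM3 and DIS3 hold split tags. Of 16 miRNA pathway genes, TARBP2, a partner of Dicer, was higher at 0.62 (-0.03) and DICER1, the nuclease that makes miRNAs, lower at -1.13 (-0.43). With trends removed 2 others were higher, AGO2 at 0.59 and TNRC6C, and none lower, with a median of 0.16, against -0.0036 as measured. Of 21 genes for partners, modifiers and transport factors of HuR, 3 were higher and 2 lower. These included CARM1, the arginine methyltransferase that modifies HuR, at 0.63 (0.09), and XPO1, a nuclear export receptor, at -0.95 (-0.31) with split tags. With trends removed 3 were higher and none lower. The hnRNP genes had 2 of 26 higher and 2 lower, and the SR splicing factor genes 0 of 15 higher and 1 lower. With trends removed 3 of 25 hnRNP genes and 2 of 14 SR genes were higher and none lower. Their medians were -0.08 and -0.05 as measured, 0.19 and 0.37 with trends removed.

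Genes of the integrated stress response, the ATF4-driven programme of amino acid supply, formed the list with the largest share past 1.5-fold in a single direction among those with at least 10 ranked genes. Of 25 ranked genes, 15 were higher and none lower with HuR siRNA, where 16.3% of all ranked genes were higher and 18.8% lower. The list's median was 0.75. With trends removed, 7 were higher, 1 was lower and the median was 0.31, where 4.38% of all genes were higher. The list's median GC content was 56.4%, against 48.4% over ranked genes. SLC6A9, SLC7A5, SESN2 and PPP1R15A had the highest ratios. PPP1R15A, which directs dephosphorylation of eIF2 alpha, had 119 CPM with HuR siRNA, against 54.7 CPM with GFP siRNA and 39.1 and 54.2 CPM in untreated cells, a ratio of 1.12 (0.63 with trends removed). SESN2 had 133 CPM with HuR siRNA, 50.1 CPM with GFP siRNA and 130.1 and 96.6 CPM in untreated cells, a ratio of 1.41 (1.00).

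DDIT3, the stress factor CHOP, had 70.0 CPM with HuR siRNA, against 35.9 CPM with GFP siRNA and 22.7 and 29.04 CPM in untreated cells, a ratio of 0.96 (0.58). ATF4 itself had 589 CPM with HuR siRNA, 349.9 CPM with GFP siRNA and 341 and 423 CPM in untreated cells, a ratio of 0.75 (0.31), with split tags. STC2, a secreted glycoprotein, had 219 CPM with HuR siRNA, 119 CPM with GFP siRNA and 109.7 and 46.8 CPM in untreated cells, a ratio of 0.88 (0.96). In DDIT3, ATF4, STC2 and PPP1R15A, HuR siRNA gave the highest level of the 4 libraries. In DDIT3 and STC2 the GFP siRNA library was also above both untreated libraries, though in STC2 it was close to library A. In PPP1R15A the GFP siRNA library lay close to untreated library B. CHAC1, which degrades glutathione, lay below the ranked level, with 281 tags with HuR siRNA and 55 with GFP siRNA and a ratio of 2.35 (1.97 to 2.84). ASNS, asparagine synthetase, had 0.43 (0.55), PSAT1, of serine synthesis, 0.19 (0.52), and ATF5, a transcription factor of the same programme, 0.01 as measured and -0.63 with trends removed, the 1 gene of the list past 1.5-fold lower on that scale. ASNS and ATF5 hold split tags.

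**Figure D4:**
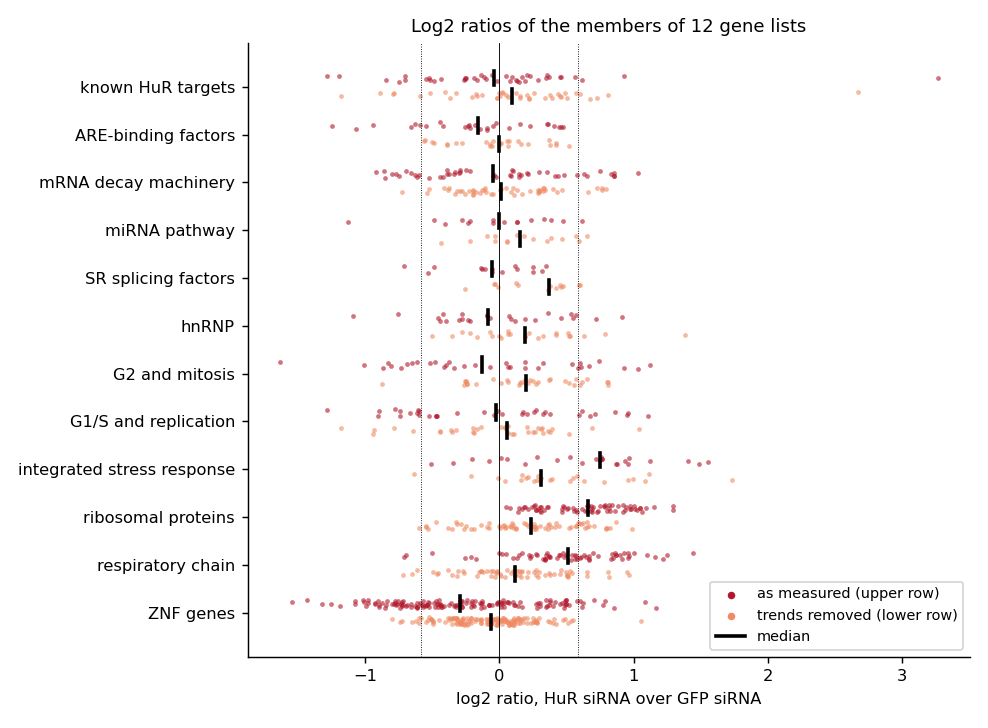
Log2 ratio of HuR siRNA over GFP siRNA (horizontal axis) for ranked members of 12 gene lists, 1 point a gene, as measured (upper row of each list) and with length and GC trends removed (lower row); bars are medians and dotted lines mark 1.5-fold. The integrated stress response has a median of 0.75 as measured and 0.31 with trends removed, and the known HuR targets -0.04 and 0.09.

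Ribosomal protein and respiratory chain genes lay mostly above zero as measured. Their transcripts are short, with median lengths of 740 nt for ribosomal proteins and 839 nt for the respiratory chain. Of all ranked genes 16.3% were more than 1.5-fold higher and 18.8% lower, and with trends removed 4.38% and 4.79%. Of 72 ranked cytosolic ribosomal protein genes, 41 were more than 1.5-fold higher with HuR siRNA and none lower, with a median of 0.66. With trends removed 14 of 69 were higher and 1 lower, with a median of 0.24. Their summed level was 74211 CPM with HuR siRNA, 48098 CPM with GFP siRNA and 67163 and 52384 CPM in the untreated libraries, highest with HuR siRNA and lowest with GFP siRNA. RPS10 had 1.30 (0.53 with trends removed), RPL36 1.30 (0.20), RPS14 1.15 (0.41) and RPS23 0.64 (0.99). These genes have many processed copies in the genome, all 4 hold split tags, and their values are uncertain. Nuclear-encoded respiratory chain genes had 27 of 66 higher and 2 lower, with a median of 0.51, and 6 and 3 of 65 with a median of 0.12 when trends were removed. NDUFA2 had 138 CPM with HuR siRNA, 50.7 CPM with GFP siRNA and 173 and 101 CPM in untreated cells, a ratio of 1.44 (0.81). The other translation genes with a 5′ terminal oligopyrimidine tract (TOP) had a median of -0.23, with 2 of 16 higher, EEF1D at 0.92 and EEF2 at 0.87, and 4 lower, including NPM1, nucleophosmin, at -0.84 (-0.68). With trends removed none of 15 was higher and 2 were lower, with a median of -0.15. EEF1D and NPM1 hold split tags.

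Cell cycle genes went both ways, as did all ranked genes, of which 16.3% were more than 1.5-fold higher and 18.8% lower. With trends removed 4.38% of all genes were higher and 4.79% lower. Of 36 G1/S and replication genes 8 were higher and 11 lower, with a median of -0.02 (2 higher and 5 lower with trends removed). E2F1, the activator of S-phase genes, had 221 CPM with HuR siRNA, against 103 CPM with GFP siRNA and 199 and 156 CPM in untreated cells, a ratio of 1.10 (0.52). GMNN, geminin, which blocks relicensing of origins, had 210.3 CPM with HuR siRNA, 108 CPM with GFP siRNA and 228 and 227 CPM in untreated cells, a ratio of 0.95 (1.04). For GMNN the GFP siRNA library stood below the other 3. Of 34 G2 and mitosis genes 7 were higher and 9 lower, and with trends removed 6 higher and 1 lower. CDC20, an activator of the anaphase-promoting complex, had 1.13 (0.61), PTTG1, securin, 1.03 (0.80), both with split tags, and CENPE, a kinetochore motor, -1.01 (-0.24). KIF20B remained past 1.5-fold lower at -0.87.

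Of 20 p53 target genes 3 were higher, SESN2, BAX, and GADD45B, a stress sensor, at 1.30 with split tags, and 2 lower, POLK and RRM2B. With trends removed SESN2 and GADD45B were higher, and POLK and CDKN1A lower. Of 24 apoptosis genes 5 were higher, led by BAD at 1.23 (0.32), and 4 lower, led by CASP8 at -0.91 (-0.50) with split tags. With trends removed BIRC5 alone was higher and none was lower. Immediate-early genes had 3 of 14 higher, IER3 at 1.27 (0.61), IER5 at 0.62 (0.58) and ATF3, and none lower. With trends removed 1 of them, IER3, was higher and 2 were lower, MYC at -0.79 and IER2 at -0.67. Of 26 Wnt pathway genes 6 were lower and 2 higher, and of 20 TGF-beta and BMP genes 7 were lower and 1, the BMP target ID3 at 1.28 (0.67), higher, where 18.8% of all ranked genes were lower and 16.3% higher. FZD6, a Wnt receptor, had 17.1 CPM with HuR siRNA, against 49.7 CPM with GFP siRNA and 34.2 and 49.8 CPM in untreated cells, a ratio of -1.53 (-0.93 with trends removed). The Wnt list's median was -0.07, and 0.01 with upper-quartile factors. With trends removed 5 Wnt genes were lower and none higher, and TGF-beta and BMP genes had 2 in each direction. Of 19 hypoxia genes 2 were higher and 5 lower, and with trends removed HIF1A alone was past 1.5-fold.

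The ZNF genes, zinc finger transcription factors, had a median GC content of 44.9%, and had 45 of 152 lower and 9 higher, with a median of -0.29. With trends removed 7 of 149 were lower and 1 higher, with a median of -0.06. Of all ranked genes 18.8% were lower and 16.3% higher as measured, and 4.79% and 4.38% with trends removed. ZNF518A had 23.5 CPM with HuR siRNA, 68.9 CPM with GFP siRNA and 50.3 and 92.3 CPM in untreated cells, a ratio of -1.54 (-0.80). Among metabolic and chaperone lists, cholesterol synthesis genes had 4 of 23 higher and 1 lower, and none of 22 past 1.5-fold with trends removed. Proteasome genes had 5 of 30 higher and 1 lower, glycolysis genes 3 of 14 higher and 1 lower, and endoplasmic reticulum chaperones 3 of 22 higher and 1 lower. With trends removed proteasome genes had 1 higher and 0 lower of 29, glycolysis genes 0 and 0 of 13, and endoplasmic reticulum chaperones 2 and 0 of 22. Heat shock genes had 4 of 21 higher, led by HSPB1 at 1.04 (0.06 with trends removed), and 2 lower, and with trends removed 0 higher and 1 lower. Actin and cytoskeleton genes had 5 of 24 higher and 2 lower, including TPM3, a tropomyosin, at 0.87 (1.17) and ACTA2, smooth muscle actin, at -0.72 (-0.95), which were the 2 past 1.5-fold with trends removed. Interferon-stimulated genes were mostly below the ranked level, and of 5 ranked 3 were lower, among them IFIT5 at -0.93 and EIF2AK2 at -0.86 with split tags, none of them past 1.5-fold where the trends could be removed. Of the list of 49 histone genes, 2 were ranked and both were within 1.5-fold, among them H1-2 at 0.44. H3-5, a histone gene outside that list, was lower at -1.23 (-1.25).

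Genes with more AU-rich pentamers in the 3′ UTR had lower measured ratios, while median ratios differed little with trends removed. Motifs were counted on the transcript strand, overlapping copies included. AUUUA occurred in 66.1% of 15431 annotated 3′ UTRs, the run UUUUUUU in 43.1% and the nonamer UUAUUUAUU, which contains AUUUA, in 7.83%. The 2914 ranked genes with 4 or more AUUUA had a median log2 ratio of -0.41, against 0.40 in the 2179 genes with none, a difference of -0.82. Past 1.5-fold lower with HuR siRNA were 35.7% of the first and 5.87% of the second. The median GC content of the transcripts was 42.0% with 4 or more copies and 56.9% with none, and untreated library A over B gave medians of -0.46 and 0.30 for the same classes. With trends removed the medians were 0.02 with 4 or more copies and 0.0067 with none, and 4.87% and 5.19% were past 1.5-fold lower. Past 1.5-fold higher on that scale were 5.94% with 4 or more copies and 3.07% with none. Pentamer number also went with 3′ UTR length, with medians of 2752 nt and 360 nt in these classes. Removing trends on length and GC content can thus also take out differences that follow the pentamers. Whether the pentamers had a part of their own in the ratio was not tested. Genes with 4 or more runs of 7 U had a median of -0.28, against 0.23 with none, and with trends removed 0.06 and -0.0086. On that scale 7.02% and 3.10% of these classes were past 1.5-fold higher, and 3.61% and 4.99% lower. Genes with the nonamer had -0.32, against -0.0001 without it, and with trends removed 0.04 and 0.0067. In the lowest class of 3′ UTR U content (0 to 23.8%) the median ratio was 0.55 and in the highest (35.6% to 63.2%) -0.47, against 0.03 and -0.07 with trends removed.

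**Figure D5:**
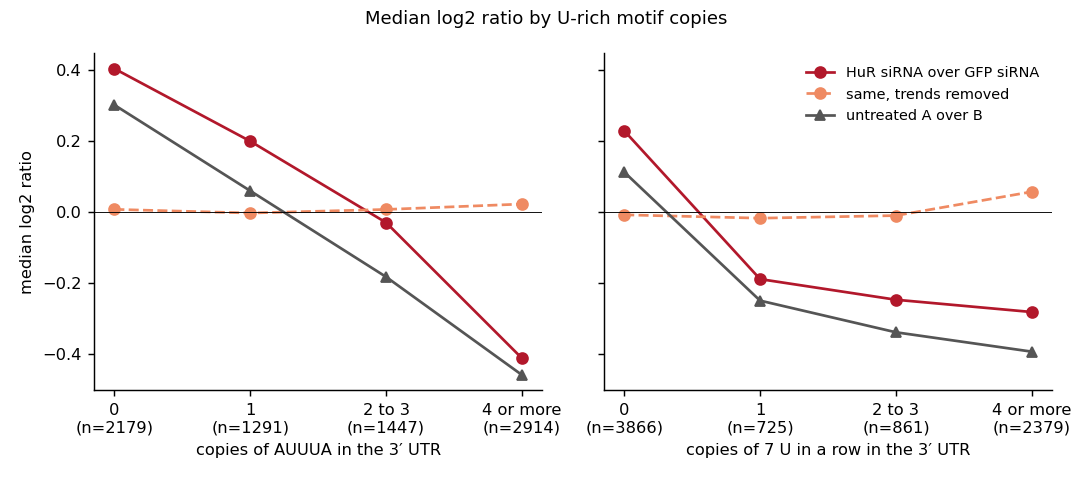
Median log2 ratio (vertical axis) of ranked genes by the number of AUUUA pentamers (left) or runs of 7 U (right) in the annotated 3′ UTR, for HuR siRNA over GFP siRNA as measured and with trends removed, and for untreated library A over B. For AUUUA the measured median of the siRNA pair is 0.40 at 0 copies and -0.41 at 4 or more, and the line with trends removed stays between -0.0035 and 0.02.

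Markers of cell types checked the HEK293 label. Of 10 keratin and epithelial markers 8 were measured and 5 ranked, with EPCAM at 366 CPM with HuR siRNA and 393 CPM with GFP siRNA and a ratio of -0.10, and KRT19 alone past 1.5-fold at 0.60 (-0.16) with split tags. Of 14 kidney progenitor markers 13 were measured and 4 ranked, among them SALL1, GATA3 and HOXD11, of which HOXD11 alone was past 1.5-fold at 0.76 (-0.08 with trends removed), while PAX8 had 2 tags with HuR siRNA and 1 with GFP siRNA. HEK293 cells are known to express neuronal genes, and of 17 neuronal markers 13 were measured and 6 ranked. Their summed level was 2775 CPM with HuR siRNA, 2887 CPM with GFP siRNA and 1348 and 1438 CPM in the untreated libraries. In the siRNA libraries most of this was NEFL, a neurofilament subunit, with 1655 CPM with HuR siRNA, 2012 CPM with GFP siRNA and 347 and 419 CPM in untreated cells. It was higher in both siRNA libraries than in both untreated ones, and its ratio within the siRNA pair was -0.28. SYP at 0.69 (0.20) and STMN3 at 0.65 (-0.01) were past 1.5-fold higher with HuR siRNA and INA at -0.82 (-0.81) lower. Of 10 fibroblast markers COL1A1 alone was ranked, at 0.34, and COL1A2 and THY1 had 2 tags or fewer. Of 12 haematopoietic markers CD68 alone was ranked, SPI1 and HBA2 had 0 tags in both siRNA libraries, and PTPRC had 1 tag with HuR siRNA and 0 with GFP siRNA.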

How the data were processed

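The HuR siRNA and GFP siRNA libraries, 2 of 10 libraries of polyadenylated RNA from HEK293 cells, were compared. The deposited values are expected counts, tags per transcript accession; fractional values are read here as tags split between transcripts. They were summed per gene and rounded. A second deposited column was not used. No aligner, annotation or genome build behind the counts is named in the sources used here. Accessions were matched to RefSeq (15886) and GENCODE v29 (134) names, and 8985 of 25005 stayed unnamed. Libraries were scaled with TMM (edgeR 4.0.16, R 4.3.3), and intervals are 95% exact Clopper-Pearson intervals of the share of tags. Untreated CPM were scaled in a fit of the 4 libraries, set to the level of the siRNA pair. Trends on length and GC content were fitted with mgcv 1.9.3. The scripts were tested on simulated data.

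Genes were named by rule: the ELAV family, the 15 highest and 15 lowest ratios of genes with a symbol whose interval excludes no difference, and up to 4 members of each of 34 lists with the largest ratios. Some genes that the rule names are not reported here. Further members of these lists, and the extremes after trend removal, were chosen after their values were seen. The members and lists were chosen with earlier results of these data known. Alternatives were 3 other scalings, 2 other prior counts, 2 other expression limits, transcripts not summed, genes with split tags left out, and trends on length, or on length and GC content, removed. The depths are given with the results. Intervals cover counting error only, and can be too narrow even for that, since tags amplified by PCR are not independent molecules.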

Additional observations from a re-analysis of the deposited data

How the results depend on the processing

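Each result was recomputed under 11 alternatives. The log2 ratio of ELAVL1 was between -1.46 and -1.63 over the scalings, -1.23 with the length trend removed and -1.14 with length and GC trends removed. Alternatives that only change which genes are counted cannot alter the ratio of a single gene, and left that of ELAVL1 at -1.54. Genes past 1.5-fold numbered 3117 higher and 3565 lower over all measured genes, and 345 higher and 377 lower with length and GC trends removed. Past 2-fold, 783 were higher and 1134 lower over all measured genes, 27 higher and 37 lower with both trends removed, 196 lower with the length trend removed, and 116 higher with library totals. The difference between genes with at least 4 AUUUA and none was -0.82, but -0.53 with the length trend removed and 0.015 with both. Against TMM, upper-quartile factors moved all ratios by 0.076, library totals by -0.093 and RLE factors by -0.04. List medians took the other sign in 13 of 28 lists with both trends removed, 9 of 29 with the length trend removed, 8 of 29 with upper-quartile factors and 7 of 27 without genes holding split tags. The cause was not tested. None of the 30 named genes with the highest and lowest ratios changed sign where a value could be had. They were chosen for their large ratios, so a kept sign says little. No paired analysis was possible because there is 1 library per siRNA with no replicate number, and no library could be left out. The shallow untreated libraries, with 2396069 tags in the smaller, limit the placing of genes of low level.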
